A study of Mus musculus with 2 samples.

Results

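Transcripts of 7 genes of cholesterol synthesis and its control were followed in 2 droplet libraries of mouse hepatocytes grown in 3 dimensions, the regulators Srebf2 and Insig1 and the enzymes Hmgcs1, Idi1, Fdft1, Sqle and Lss. They were picked by symbol from the 28692 genes listed in the files, and all 7 were found, each under 1 gene ID. None of them encodes a receptor for cholesterol uptake, so uptake was described from a separate list. The cells were hepatocytes, which carry out most metabolic work of the liver, taken from C57BL/6 mice and held in Matrigel, a basement membrane extract. In the induction library the medium held 3 uM dexamethasone, a synthetic glucocorticoid. In the expansion library it held no dexamethasone but the GSK3 inhibitor CHIR99021 (3 uM) and TNFa, an inflammatory cytokine (100 ng/mL). Both media held the growth factors EGF (25 ng/mL) and HGF (50 ng/mL), the ROCK inhibitor Y27632 (10 uM), the TGF-beta receptor inhibitor A83-01 (1 uM), nicotinamide (100 mM), N-acetylcysteine (1.25 mM) and the supplements B27 (2%) and N2 (1%), and the labels name no serum. The comparison asked how transcript levels differed between the medium named for induction and the medium named for expansion. Each medium had 1 library, so differences were neither replicated nor tested, and the effects of dexamethasone, CHIR99021 and TNFa cannot be told apart. The labels do not say how many animals gave the cells, and UMIs (counted transcript molecules) of Xist, made in female cells, and of Y-linked genes were found in both libraries, mostly in separate cells in induction medium, where 22 cells held both, while 275 held both in expansion medium.

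Hepatocytes make much of the cholesterol of the body from acetyl-CoA, through mevalonate, squalene and lanosterol. The control of the pathway sits in the membrane of the endoplasmic reticulum. When sterols are low, the escort protein SCAP carries the precursor of the transcription factor SREBP2 to the Golgi, where proteases release its active part, which raises transcription of nearly all enzymes of the pathway. When sterols are high, INSIG proteins hold SCAP and the precursor back.

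The induction library held 1275 barcodes, of which 1245 cells with 9201887 UMIs were kept, and the expansion library 1208 barcodes, of which 1191 cells with 29390000 UMIs were kept. The median cell held 6765 UMIs in induction medium and 23184 UMIs in expansion medium, 3.43 times as many. The libraries shared 4 barcode sequences. Levels are given in CPM, the UMIs of a gene scaled to a library total of 1000000, and 3 UMIs, the floor used here, were 0.326 CPM in the induction library and 0.102 CPM in the expansion library. Intervals are 95% intervals for counting error only. Of 10 hepatocyte markers, all had at least 10 CPM in a library, and 9 or 10 were found in at least 50% of the cells of each cluster described below. The defining markers of stellate cells, macrophages and leukocytes were at or near 0, at 0.326, 0.869 and 0 CPM summed over each list in the induction library and 0.204, 1.77 and 0.102 CPM in the expansion library. Over the 8480 genes that reached 50 UMIs in each library, the log2 ratio (induction over expansion) had a median of 0.22, referred to as the median gene. Summed cholangiocyte markers stood at 746 CPM in induction medium and 1426 CPM in expansion medium, led by Spp1 and Sox9, endothelial markers at 34.2 and 39.4 CPM, nearly all Egfl7, and erythroid markers at 3.80 and 1.84 CPM. Of the 10 hepatocyte markers 5 were called higher in induction medium by the rule given below (Alb, Ttr, Hnf4a, Ahsg and Apoh; Ahsg not relative to the median gene), with Alb at 19450 CPM in induction medium and 1737 CPM in expansion medium; the part of these markers in the results was not tested.

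SREBP2 binds short sterol regulatory elements, often beside boxes bound by the factor NF-Y, so the start regions of 3 members are shown for these letters. RefSeq promoter windows (GRCm38.p6, 250 bases before the start to 50 after it) were at hand for 5 of the 7 members, Srebf2, Insig1, Hmgcs1, Idi1 and Lss. The letters TCACNCCAC, a core of the sterol regulatory element, were searched on both strands and found in 1 of the 5 windows, that of Hmgcs1, and in 1.24% of all 32851 windows of this length. The shorter word TCACNCCA, which the longer one contains and which was chosen after the sequences had been seen, was found in the windows of Hmgcs1 and Srebf2 and in 4.36% of all windows. All 5 windows held CCAAT, the NF-Y box, on the reverse strand (ATTGG), as did 37.4% of all windows on either strand. All 5 also held GGGCGG, a GC box, on either strand, as did 35.7% of all windows. A match is a match of letters, and its absence says nothing about the factor. The sequences are from the plus strand, 5′ to 3′, at chr13:119690101-119690350 (Hmgcs1), chr15:82147019-82147180 (Srebf2) and chr5:28071162-28071362 (Insig1), cut before the first annotated transcript, with the matches to the words beginning with TCAC and to ATTGG in capitals.
Hmgcs1: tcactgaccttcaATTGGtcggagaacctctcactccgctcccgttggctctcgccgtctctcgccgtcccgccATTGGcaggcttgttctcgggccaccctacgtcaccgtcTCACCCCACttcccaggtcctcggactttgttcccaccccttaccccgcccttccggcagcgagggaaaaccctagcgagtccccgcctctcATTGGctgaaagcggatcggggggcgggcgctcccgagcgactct
Srebf2: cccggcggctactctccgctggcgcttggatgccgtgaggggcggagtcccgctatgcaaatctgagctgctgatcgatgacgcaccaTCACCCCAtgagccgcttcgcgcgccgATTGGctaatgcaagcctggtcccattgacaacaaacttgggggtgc
Insig1: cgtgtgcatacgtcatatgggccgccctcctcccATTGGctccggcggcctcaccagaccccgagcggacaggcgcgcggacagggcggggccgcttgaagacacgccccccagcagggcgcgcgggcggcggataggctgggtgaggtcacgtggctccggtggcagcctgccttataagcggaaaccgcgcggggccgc
Counted from the RefSeq start at 0, the sterol word of Hmgcs1 began at -137, between ATTGG boxes at -176 and -45. That of Srebf2 began at -162, with an ATTGG box at -135.

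Across the libraries, Sqle stood apart from the other members. Sqle was 2.51-fold higher in induction medium, while the other 6 lay between 1.20-fold lower and 1.09-fold higher. Of the 7 members, all had at least 10 CPM, and 1 was called higher (at least 2-fold with an interval excluding a ratio of 1) and 0 lower. Over all 7220 genes of at least 10 CPM, 9.17% were called higher and 3.17% lower, or 6.65% and 4.67% relative to the median gene, so 1 call among 7 members is near the background. The median log2 ratio of the members was -0.09, beside 0.21 over all 7220 genes. The summed level of all 7 was 706 CPM (6497 UMIs) in induction medium and 658 CPM (19328 UMIs) in expansion medium, and without Sqle it was 557 CPM and 598 CPM.

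**Figure D1:**
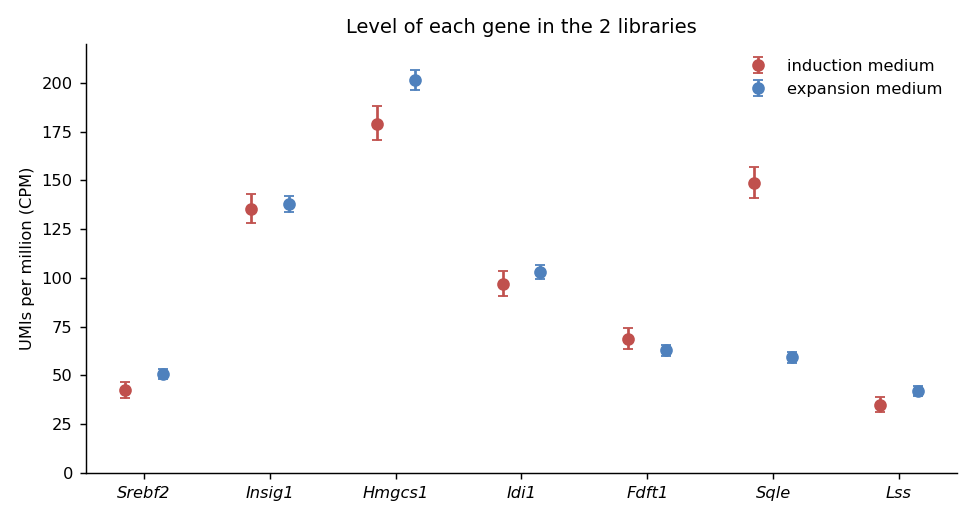
Level of each gene in CPM in the induction library (red) and the expansion library (blue), with 95% Poisson intervals that cover counting error. Sqle stood at 149 CPM in induction medium against 59.3 CPM in expansion medium, and the other 6 genes differed far less.

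Srebf2, which encodes SREBP2 itself (chromosome 15, 82147181 to 82205379 on GRCm38), had 390 UMIs and 42.4 CPM (38.3 to 46.8) in induction medium and 1494 UMIs and 50.8 CPM (48.3 to 53.5) in expansion medium. The log2 ratio was -0.26 (-0.43 to -0.10), and 15.7% of all tested genes had a lower one. Insig1, which encodes the retention protein and is itself a classical SREBP target (chromosome 5, 28071363 to 28078662), had 1247 UMIs and 136 CPM (128 to 143) in induction medium and 4052 UMIs and 138 CPM (134 to 142) in expansion medium. Its log2 ratio was -0.02 (-0.12 to 0.07), so the difference was within counting error. Both regulators thus differed by far less than 2-fold.

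Hmgcs1 (chromosome 13, 119690379 to 119708260) encodes the enzyme that forms HMG-CoA from acetyl units. It had 1648 UMIs and 179 CPM (171 to 188) in induction medium and 5927 UMIs and 202 CPM (197 to 207) in expansion medium. The log2 ratio was -0.17 (-0.25 to -0.09). Idi1, the isomerase that readies isoprene units for joining (chromosome 13, 8885501 to 8892451), had 891 UMIs and 96.8 CPM (90.6 to 103) in induction medium and 3030 UMIs and 103 CPM (99.5 to 107) in expansion medium. Its log2 ratio was -0.09 (-0.20 to 0.02), within counting error of no difference.

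The 3 enzymes that make squalene and close its rings did not share a direction. Fdft1, the squalene synthase (chromosome 14, 63145150 to 63179578), had 631 UMIs and 68.6 CPM (63.3 to 74.1) in induction medium and 1849 UMIs and 62.9 CPM (60.1 to 65.8) in expansion medium, a log2 ratio of 0.12 (-0.01 to 0.26). Relative to the median gene its sign turned, to -0.10. Sqle, the squalene epoxidase and a rate-limiting step of the pathway (chromosome 15, 59315077 to 59331192), had 1369 UMIs and 149 CPM (141 to 157) in induction medium and 1743 UMIs and 59.3 CPM (56.6 to 62.2) in expansion medium. The log2 ratio of Sqle was 1.33 (1.22 to 1.43), or 1.11 relative to the median gene, and 94.2% of all tested genes had a lower ratio. Lss, the lanosterol synthase that acts on the product of Sqle (chromosome 10, 76531588 to 76557138), had 321 UMIs and 34.9 CPM (31.2 to 38.9) in induction medium and 1233 UMIs and 42.0 CPM (39.6 to 44.4) in expansion medium, a log2 ratio of -0.27 (-0.45 to -0.09). The step before Sqle thus differed within counting error and the step after it was slightly lower, in induction medium.

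Cells that held Xist but no Y-linked UMI were named Xist cells (412 in induction medium and 325 in expansion medium). Cells that held a Y-linked UMI but no Xist were named Y cells (503 and 505), and both kinds were compared apart. A class could rest on 1 UMI, and 22 and 275 cells held both kinds of UMI, while 308 and 86 held neither. Some cells may thus be placed with the wrong sex, and the animal of each cell is not known. The direction of Sqle was the same in both kinds of cells, at 153 CPM in induction medium and 57.4 CPM in expansion medium in Xist cells, and at 146 CPM and 59.1 CPM in Y cells, 2.66-fold and 2.48-fold higher. In each kind of cell Sqle was the 1 member called, and 12.0% and 8.46% of all tested genes were called higher there, 2.69% and 4.13% lower. Insig1 differed in sign between them. It stood at 156 CPM in induction medium and 123 CPM in expansion medium in Xist cells (log2 ratio 0.34, 0.18 to 0.50), and at 117 CPM and 148 CPM in Y cells (-0.34, -0.49 to -0.19). Hmgcs1 did as well, at 195 CPM in induction medium and 171 CPM in expansion medium in Xist cells (0.20, 0.06 to 0.34), and at 178 CPM and 213 CPM in Y cells (-0.26, -0.38 to -0.14). With 1 library per medium, this gap between Xist cells and Y cells was not tested. Xist cells and Y cells were spread unevenly over the clusters described below, and the part of the clusters in the gap was not tested either. The gap also depended on the scaling. Relative to the median of all genes tested in the same cells, Hmgcs1 stood at -0.08 (-0.22 to 0.06) in Xist cells and -0.45 in Y cells, the same sign, and Insig1 at 0.07 (-0.09 to 0.22), within counting error of 0, and -0.52. The median log2 ratio of the members was 0.20 in Xist cells and -0.26 in Y cells, beside 0.28 and 0.19 over all tested genes.

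**Figure D2:**
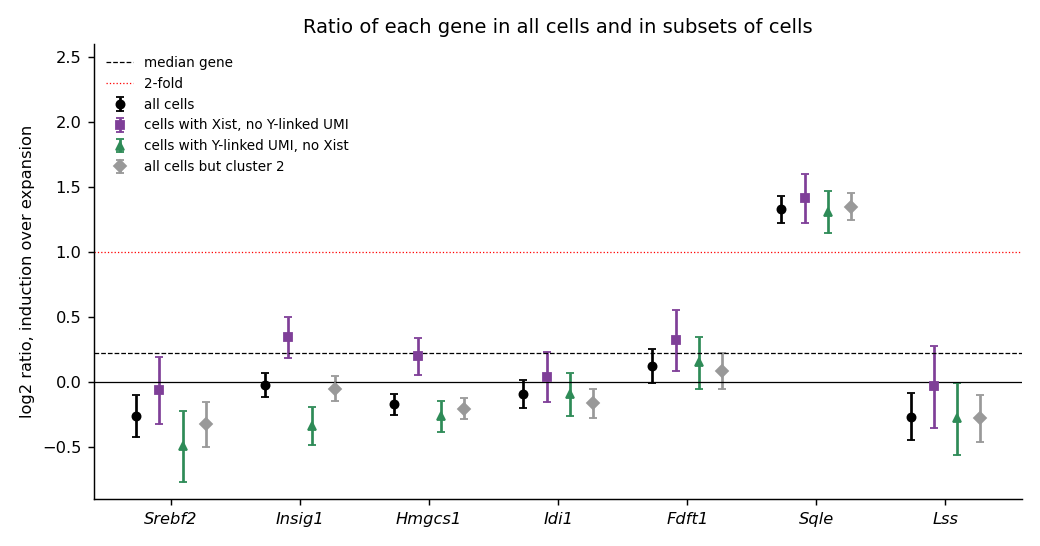
Log2 ratio (induction over expansion) of each gene in all cells, Xist cells, Y cells, and all cells but those of cluster 2, with 95% intervals for counting error. The dashed line is the median gene at 0.22. Sqle lay above 2-fold in all 4 sets of cells, and Insig1 and Hmgcs1 lay on opposite sides of 0 in Xist cells and Y cells, which for Hmgcs1 did not hold relative to the median of all genes tested in those cells.

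Most other enzymes of sterol synthesis lay within 2-fold. Of 16 further enzymes, 15 had at least 10 CPM and 0 were called in either direction, or 1 lower relative to the median gene. Whatever their size, 4 had an interval above a ratio of 1, 8 below it and 3 across it, where over all 7220 genes 50.8% lay above, 18.6% below and 30.6% across. Their median log2 ratio was -0.16. Cyp51, the lanosterol demethylase that follows Lss, stood at 130 CPM in induction medium and 244 CPM in expansion medium, 1.88-fold lower (log2 ratio -0.91, or -1.13 relative to the median gene, past 2-fold). The 15 enzymes lay between -0.91 and 0.58 on the log2 scale.

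Among 8 further genes of SREBP control with at least 10 CPM, of 9 listed, 1 was called, the paralogue Insig2. Insig2 had 1136 UMIs and 123 CPM in induction medium and 1809 UMIs and 61.6 CPM in expansion medium, 2.01-fold higher (log2 ratio 1.00, 0.90 to 1.11), just past the limit, and under it relative to the median gene (0.78). Scap, the escort protein, stood at 91.6 CPM in induction medium and 160 CPM in expansion medium (-0.81, -0.92 to -0.70). Relative to the median gene Scap stood at -1.03 and was the 1 gene of this list called, lower. Tmem97, a sterol-responsive membrane protein, stood at 255 CPM in induction medium and 201 CPM in expansion medium (0.34, 0.27 to 0.41). The list median was 0.32.

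Of 7 genes of cholesterol uptake and its lysosomal handling, 6 had at least 10 CPM, and 1 was called, higher. This was Lrp1, a large endocytic receptor that takes up lipoprotein remnants, at 30.0 CPM (276 UMIs) in induction medium and 7.45 CPM (219 UMIs) in expansion medium, 4.03-fold higher (log2 ratio 2.01, 1.75 to 2.27). Npc2, which hands cholesterol on inside lysosomes, stood at 226 CPM in induction medium and 330 CPM in expansion medium (-0.54, -0.61 to -0.48), and Scarb1, a receptor for HDL, at 44.7 CPM and 56.7 CPM (-0.34, -0.50 to -0.19). The median of the list was 0.58.

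Of 9 genes of storage and efflux, 5 had at least 10 CPM and 1 was called, Soat2, which esterifies cholesterol in hepatocytes, at 14.8 CPM (136 UMIs) in induction medium and 3.16 CPM (93 UMIs) in expansion medium (log2 ratio 2.22, 1.83 to 2.62). Abca1, an exporter of cholesterol, stood at 155 CPM and 142 CPM (0.13, 0.04 to 0.21), and Lcat, a plasma enzyme that esterifies cholesterol on HDL, at 65.3 CPM and 37.9 CPM (0.79, 0.64 to 0.93), induction medium first. Of 7 genes of bile acid synthesis, by which the liver spends cholesterol, 1 had at least 10 CPM, Baat, which conjugates bile acids, at 54.9 CPM in induction medium and 11.8 CPM in expansion medium (2.21, 2.01 to 2.41). Akr1d1, a reductase of the pathway, was under that level in both libraries. It stood at 7.82 CPM (72 UMIs) in induction medium and 1.70 CPM (50 UMIs) in expansion medium (2.20, 1.66 to 2.75). Fatty acid synthesis, which SREBP1c and ChREBP drive, lay elsewhere than sterol synthesis. Of its 10 listed genes 9 had at least 10 CPM, and 8 of them were called higher, with a median log2 ratio of 1.60: Acaca, Acly, Fasn, Elovl6, Scd1, Me1, Thrsp and Mlxipl. Scd1, a desaturase, stood at 2481 CPM in induction medium and 458 CPM in expansion medium, and the fatty acid synthase Fasn at 298 CPM and 101 CPM. Sqle, at 1.33, lay between the medians of the sterol enzymes and of fatty acid synthesis.

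**Figure D3:**
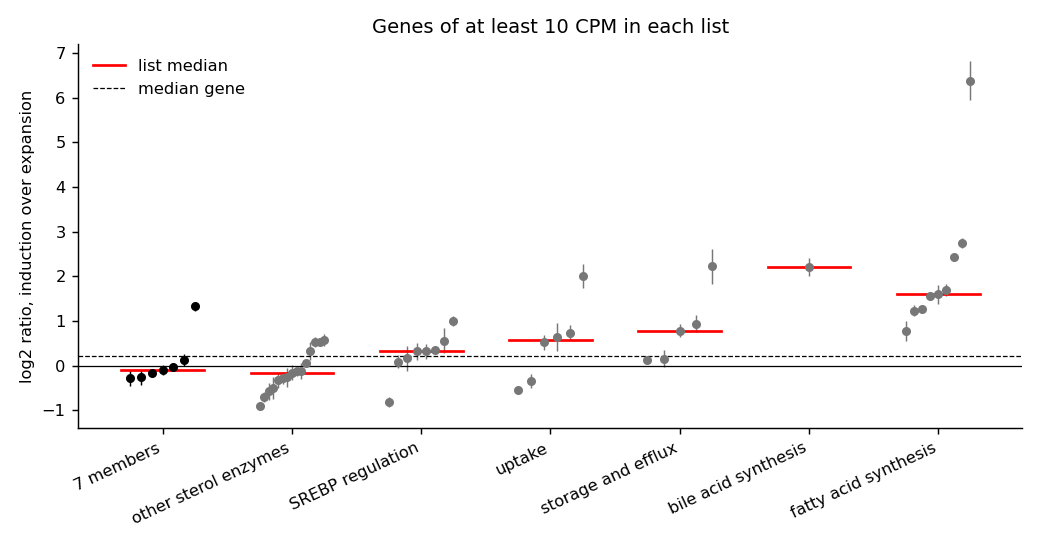
Log2 ratio (induction over expansion) of every gene of at least 10 CPM in 7 lists, with 95% intervals for counting error and the median of each list in red. Sqle is the uppermost of the 7 members, at 1.33, and the remaining members and the other sterol enzymes lie between -0.91 and 0.58, below each of the 9 genes of fatty acid synthesis.

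In single cells the same contrast was seen for Sqle after each cell was thinned to 2000 UMIs, which left out 14 cells of induction medium and 0 of expansion medium. Sqle was found in 321 of 1231 cells in induction medium, 26.1% (exact interval 23.6 to 28.6), and in 144 of 1191 cells in expansion medium, 12.1% (10.3 to 14.1). Without thinning the order was the other way, 57.5% and 68.7%, since the cells of expansion medium held more UMIs. At 1000 and 4000 UMIs per cell the shares were 15.9% and 42.2% in induction medium and 6.13% and 19.2% in expansion medium.

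Of the other members, Hmgcs1 was found in 27.4% of thinned cells (24.9 to 30.0) in induction medium and 32.9% (30.2 to 35.7) in expansion medium, but the intervals overlapped at 1000 UMIs, at 4000 UMIs and with another random draw at 2000 UMIs (29.2% and 31.2%). Insig1 was found in 23.1% and 24.8%, Idi1 in 14.9% and 19.0%, Fdft1 in 12.3% and 11.6%, Lss in 7.80% and 7.64%, and Srebf2 in 7.31% and 8.56%, induction medium first, with overlapping intervals. At 4000 UMIs the intervals of Fdft1 lay apart, at 24.7% in induction medium and 19.3% in expansion medium. Without thinning, these 6 genes were found in 22.2% to 61.2% of cells in induction medium and in 54.9% to 90.5% in expansion medium. No cell type that lacks these genes was present, so free RNA was gauged with Xist in cells with at least 2 Y-linked UMIs, where it was found after thinning in 1.10% (3 of 272 cells, median 7900 UMIs before thinning) in induction medium and 3.51% (21 of 599 cells, median 24990 UMIs) in expansion medium. The share of every member was above that. Xist gauges its own free RNA only, so the part of free RNA in the shares of the members was not tested.

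Most cells held few molecules of each gene. At 2000 UMIs per cell, 3 or more UMIs of Sqle were found in 1.14% of cells in induction medium and 0% in expansion medium, and 3 or more of Hmgcs1 in 1.46% and 1.60%. The variance over cells divided by the mean, 1 under pure counting error, was 1.19 for Sqle in induction medium and 0.990 in expansion medium. It was 1.46 for Insig1 in induction medium, where the highest cell held 9 UMIs, and 1.25 in expansion medium. For Srebf2 it was 0.970 and 0.915, so at this depth its spread over cells was no wider than counting error.

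The members ranged more widely over clusters of cells than they differed between the media. The range sets the highest against the lowest of 4 or 5 clusters, while the media give 1 ratio, so the measures are not alike. Cells were clustered jointly with the members and the lipid lists left out, and 4 clusters had at least 50 cells in induction medium and 5 in expansion medium. Cluster 0 (629 cells, led by Slc2a2, Ppp1r3b and Gckr), cluster 1 (195 cells, Serpina3k, Sult1e1 and Serpina3m) and cluster 3 (252 cells, Tat, Slco1a4 and Rapgef4) were of induction medium. Cluster 4 (142 cells, Serpina7, Spib and Inhbb), cluster 6 (241 cells, the division genes Mki67, Cenpf and Ccna2), cluster 7 (377 cells, Orm2, Ang and Saa1) and cluster 8 (312 cells, Ccl5, Fscn1 and Stra6) were of expansion medium. Cluster 2, led by S100a6, Serpine2 and Sprr1a, was found in both, with 101 cells of induction medium and 119 of expansion medium. Cluster 5 (38 cells of induction medium) was under the limit of 50. Since the other clusters lay wholly or nearly wholly in 1 library, cluster and medium cannot be told apart there.

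The members were lowest in cluster 2 in both media. Their summed level there was 344 CPM (308 to 381) in induction medium and 232 CPM (217 to 249) in expansion medium. In the remaining clusters it was 686 CPM in cluster 0, 782 CPM in cluster 1 and 924 CPM in cluster 3 in induction medium, and 462 CPM in cluster 8, 695 CPM in cluster 4, 842 CPM in cluster 6 and 844 CPM in cluster 7 in expansion medium. The intervals of clusters 6 and 7 overlapped, and the other neighbours in each order did not. In cluster 2 the 10 hepatocyte markers were also lowest, at 28983 CPM in induction medium and 21708 CPM in expansion medium, against 60187 to 128520 CPM and 34863 to 70971 CPM in the other clusters; their part in the low level of the members was not tested. Cluster 2 lay lowest for each member in expansion medium and for 6 of 7 in induction medium, where Srebf2 was lowest in cluster 1. Some of these lowest places were within counting error. In expansion medium the interval of Srebf2 in cluster 2 overlapped those in clusters 7 and 8. In induction medium that of Idi1 in cluster 2 overlapped those in clusters 0 and 1. There that of Fdft1 in cluster 2 overlapped that in cluster 0, and that of Srebf2 in cluster 1 overlapped those in clusters 0 and 2.

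Individual members had different orders over the clusters. Sqle stood at 40.2 CPM in cluster 2, 146 CPM in cluster 0, 169 CPM in cluster 3 and 219 CPM in cluster 1 in induction medium, with overlapping intervals for clusters 0 and 3. In expansion medium it stood at 26.4 CPM in cluster 2, 44.2 CPM in cluster 8, 56.3 CPM in cluster 4, 71.2 CPM in cluster 7 and 79.8 CPM in cluster 6. The intervals of clusters 8 and 4 overlapped, as did those of clusters 7 and 6. Clusters 0, 1 and 3 of induction medium were thus each above the highest cluster of expansion medium.

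Insig1 was highest in cluster 3 in induction medium, at 208 CPM (187 to 231), against 142 CPM in cluster 1, 131 CPM in cluster 0 and 53.0 CPM in cluster 2. In expansion medium it lay at 181 CPM in cluster 7, 177 CPM in cluster 6, 150 CPM in cluster 4, 94.5 CPM in cluster 8 and 38.3 CPM in cluster 2. Within induction medium Srebf2 was also highest in cluster 3, at 64.6 CPM (53.0 to 78.0), and lowest in cluster 1, at 28.1 CPM (20.4 to 37.7), where Sqle was highest. For Srebf2 the interval of cluster 3 overlapped that of cluster 2, and the interval of cluster 1 overlapped those of clusters 0 and 2. Of the cells of cluster 3, 97.2% held Xist and no Y-linked UMI, against 10.8% in cluster 1, 13.4% in cluster 0 and 35.6% in cluster 2, and in expansion medium cluster 4 held 81.7% such cells against 9.81% to 37.8% in the others, so that cluster and animal cannot be told apart for these 2 clusters. Xist itself was not left out of the clustering and was among the 10 leading genes of cluster 4.

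Hmgcs1 ranged from 78.5 CPM in cluster 2 to 233 CPM in cluster 3 in induction medium and from 56.0 CPM in cluster 2 to 286 CPM in cluster 7 in expansion medium, 2.97-fold and 5.11-fold. Lss ranged 5.18-fold and 5.58-fold, with 10 UMIs behind its lowest level in induction medium. Idi1 ranged 1.62-fold in induction medium and 4.11-fold in expansion medium, and Fdft1 1.90-fold and 2.50-fold. Srebf2 ranged 2.30-fold and 1.95-fold.

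**Figure D4:**
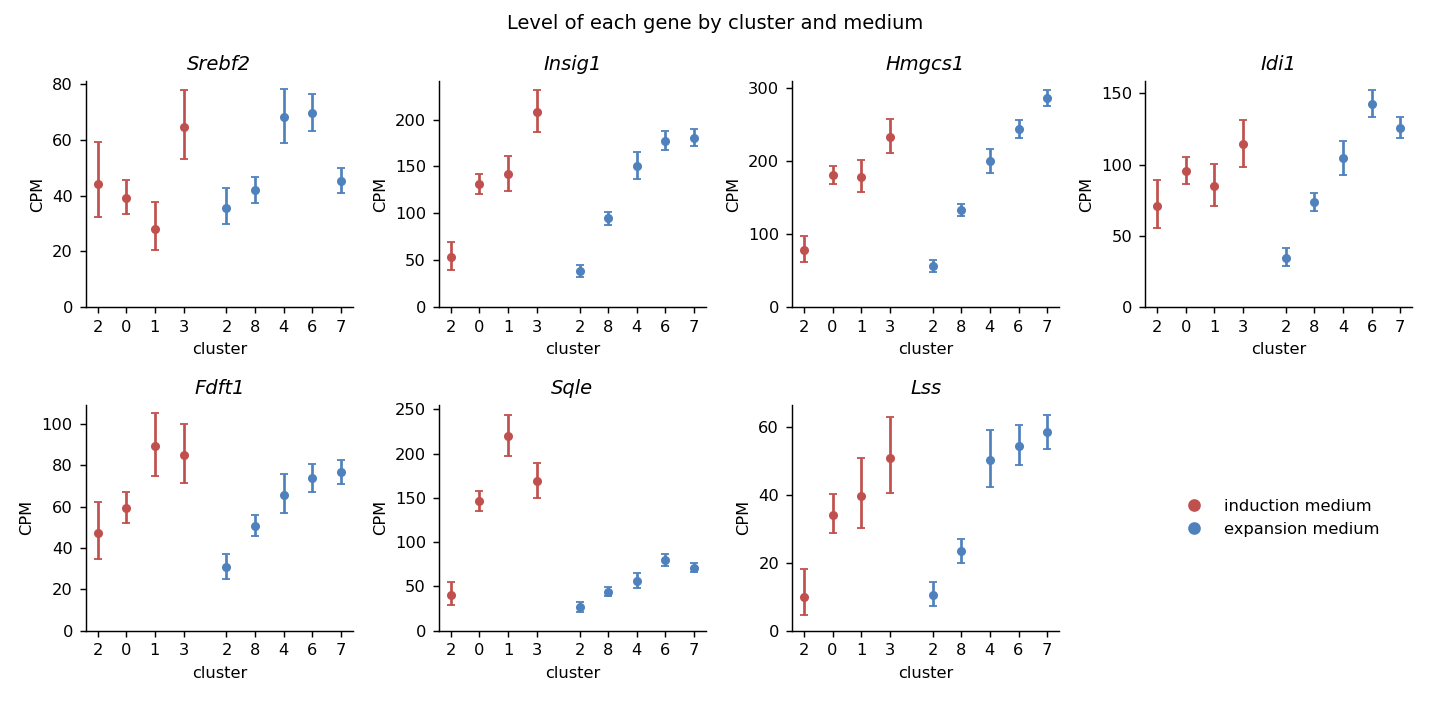
Level of each gene in CPM by cluster, in induction medium (red) and expansion medium (blue), with 95% Poisson intervals for counting error; each panel has its own axis from 0. In expansion medium cluster 2 was lowest for each gene, for Srebf2 with an interval that overlapped those of clusters 7 and 8. Sqle in clusters 0, 1 and 3 of induction medium lay above every cluster of expansion medium.

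Cluster 2 was the 1 cluster with at least 50 cells of each medium, although its cells were not alike in the 2 media, with Alb at 4325 CPM in induction medium and 421 CPM in expansion medium. There Sqle stood at 40.2 CPM (41 UMIs) in induction medium and 26.4 CPM (91 UMIs) in expansion medium, 1.52-fold higher (log2 ratio 0.61, 0.04 to 1.16), which did not reach 2-fold. Idi1 stood at 70.7 CPM (72 UMIs) in induction medium and 34.8 CPM (120 UMIs) in expansion medium, 2.03-fold higher (1.02, 0.58 to 1.45), and was the 1 member called in this cluster, where 5.82% of all tested genes were called higher and 2.38% lower. Relative to the median of all genes tested in the cluster Idi1 stood at 0.79, and 0 members were called. On that scale Sqle stood at 0.37 (-0.20 to 0.92), within counting error of 0. The other 5 had log2 ratios from -0.09 to 0.62. Without the cells of cluster 2, the log2 ratio of Sqle was 1.35 (1.24 to 1.45), and it was the 1 member called, beside 9.89% of all tested genes called higher and 3.97% lower.

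Of 12 G2/M genes, of late division, 9 had at least 10 CPM and 0 were called, or 1 relative to the median gene (Ccnb2, lower). The intervals of all 9 lay below a ratio of 1 (median log2 ratio -0.62), with Top2a at 29.1 CPM in induction medium and 44.8 CPM in expansion medium and Ube2c at 32.1 and 46.4 CPM. Thinned cells with at least 2 of these genes, called G2/M cells here, numbered 75 in induction medium and 116 in expansion medium. Of these, 30 and 64 held exactly 2 such genes, and outside them 53 and 170 cells held exactly 1, so many cells lay near the limit. Idi1 was higher in G2/M cells than in the other cells of the same library, at 134 CPM (109 to 162) against 93.7 CPM (87.3 to 100) in induction medium and at 140 CPM (127 to 154) against 98.8 CPM (95.0 to 103) in expansion medium. In expansion medium Srebf2, at 70.6 CPM (61.5 to 80.7) against 48.5 CPM (45.9 to 51.3), and Hmgcs1, at 245 CPM (228 to 263) against 197 CPM (191 to 202), were also higher in G2/M cells. In induction medium their intervals overlapped, at 55.4 against 41.3 CPM for Srebf2 and 201 against 177 CPM for Hmgcs1. The intervals of Fdft1 and Lss overlapped in both media. Sqle went opposite ways, at 112 CPM (89.8 to 138) in G2/M cells against 152 CPM (144 to 161) in the others in induction medium, and at 80.7 CPM (71.0 to 91.5) against 56.8 CPM (54.0 to 59.8) in expansion medium. Insig1 stood at 102 CPM (80.6 to 127) against 138 CPM (130 to 146) in induction medium, and at 150 CPM (136 to 164) against 136 CPM (132 to 141), with overlapping intervals, in expansion medium. The G2/M cells held a median of 9991 UMIs against 6682 in induction medium, and 25378 against 22913 in expansion medium, and the part of this gap in the differences was not tested. The clusters differed in G2/M genes as well. In induction medium these summed to 137, 33.5, 236 and 15.9 CPM in clusters 2, 0, 3 and 1, in the order of rising Sqle. The part of the clusters in the differences was not tested either.

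Across cells of 1 library the members varied together weakly at 2000 UMIs. Spearman's correlation of each member with the summed UMIs of the other 6 lay between 0.03 and 0.15 over 1231 cells of induction medium and between 0.02 and 0.17 over 1191 cells of expansion medium, where cells share a library and most counts are 0 or 1. Such values are a description and are too weak to rank the members by themselves. They grew with depth: at 10000 UMIs per cell, which 1156 cells of expansion medium reached, the correlation was 0.51 for Hmgcs1, 0.37 for Insig1, 0.37 for Idi1, 0.29 for Lss, 0.26 for Sqle, 0.18 for Fdft1 and 0.08 for Srebf2. Of 3741 genes found in at least 20% of these cells, none had a higher correlation with the other 6 members than Hmgcs1, and the median over these genes was 0.02. Pairs with the highest correlation at that depth were Insig1 with Hmgcs1 (0.37), Hmgcs1 with Idi1 (0.34) and Hmgcs1 with Lss (0.26). At 4000 UMIs per cell, the depth at which both libraries could be set side by side, Sqle had 0.23 over 1096 cells of induction medium and 0.07 over 1191 cells of expansion medium, while Hmgcs1 had 0.21 and 0.31. The order for Sqle depended on the draw and depth: at 2000 UMIs it was 0.14 in induction medium and 0.04 in expansion medium, with another random draw 0.09 and 0.10, and without thinning 0.25 and 0.35.

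**Figure D5:**
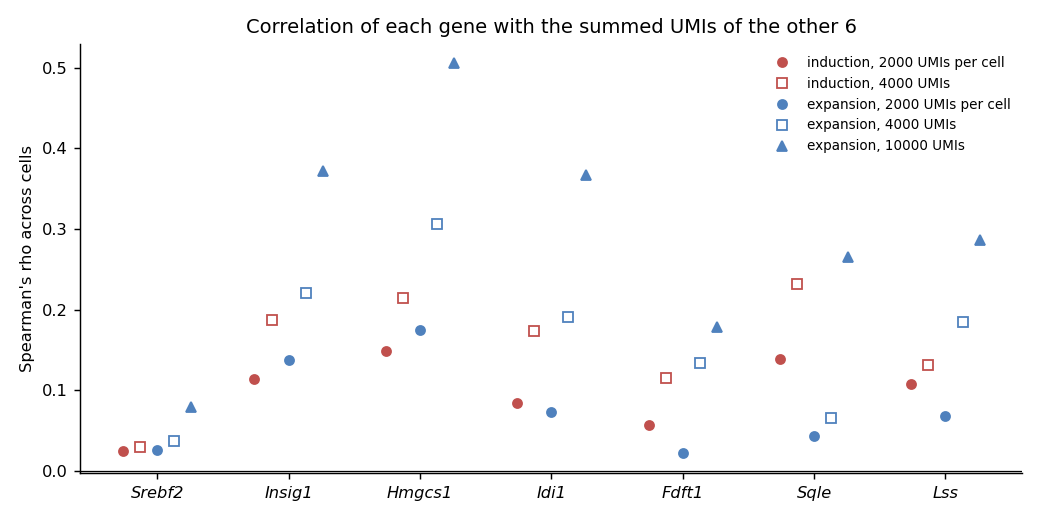
Spearman's correlation across cells of each gene with the summed UMIs of the other 6, in induction medium (red) and expansion medium (blue), at 2000, 4000 and 10000 UMIs per cell. The values grow with depth, and Srebf2 stays below 0.1 at each depth.

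The other sterol enzymes followed the members from cell to cell. The summed UMIs of the 16 further enzymes had a correlation of 0.28 with the summed members in induction medium and 0.29 in expansion medium at 2000 UMIs, 0.42 and 0.46 at 4000 UMIs, and 0.66 at 10000 UMIs in expansion medium. Fatty acid synthesis had 0.23 in induction medium and 0.33 in expansion medium at 4000 UMIs, and the uptake list 0.01 and -0.07. At 10000 UMIs in expansion medium fatty acid synthesis had 0.50 and the uptake list -0.16. Among single genes at 2000 UMIs, those most like the summed members in induction medium included Scd2, Wfdc21, Cyp3a11, C3, Apoc1, Fga, Itih4, Apoa2 and Scd1 (0.23 to 0.17, of 893 genes). In expansion medium they were Trf, Scd2, C3, Saa1, Saa3, Cp, Lrg1, Fga, Calr and Fabp1 (0.30 to 0.21, of 744 genes). The desaturase gene Scd2, the complement gene C3 and the fibrinogen gene Fga stood in both lists. The 10 hepatocyte markers, summed, had a correlation of 0.07 in induction medium and 0.17 in expansion medium at 2000 UMIs. The correlation of these markers was 0.10 and 0.20 at 4000 UMIs, and 0.26 at 10000 UMIs in expansion medium. The part of the markers in the values of the lists and genes was not tested.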

How the data were processed

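The authors deposited raw UMI counts, without normalization, by gene and barcode for 1 induction and 1 expansion library. The submitters' processing notes name Cell Ranger 2.1.1 and build mm10; annotation release, cell calling and kit chemistry: not given in the sources used here. Members, lists and tests were chosen with earlier results of these data known.

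Cells needed at least 500 genes and at most 25% mitochondrial UMIs, which removed 30 induction and 17 expansion barcodes. Counts were summed per library and divided by its total to give CPM. Levels carry exact Poisson intervals, ratios exact conditional binomial intervals and shares exact Clopper-Pearson intervals, all at 95%. A gene was called if it reached 10 CPM in a library, differed at least 2-fold and had an interval excluding a ratio of 1. Named were all members and, from each list, the called genes and the 2 with the most UMIs; for cell type markers summed levels are given, and 1 gene that the rule names is not reported here. CPM is not divided by transcript length, so genes were not ranked by level. Thinning drew UMIs without replacement with a fixed seed. Clusters came from scanpy 1.11.5 and igraph 0.11.9 (Leiden, resolution 0.6, 20 components, 2000 variable genes, 15 neighbours). Doublets were kept: Scrublet marked 2 induction and 4 expansion cells, too few for a working caller, while 22 and 275 cells held both Xist and a Y-linked UMI. Gene positions are from GENCODE M21 (GRCm38, the assembly mm10 denotes) and promoter sequences from RefSeq. The code was tested on simulated counts. Software was numpy 2.4.6, pandas 2.3.3 and scipy 1.17.1 under Python 3.11.15. Alternatives were other cell filters, totals, cell weights, thinning depths and seeds, doublet removal, Xist or Y cells alone, other size limits and other cluster settings.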

Additional observations from a re-analysis of the deposited data

Results flagged for a closer look

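Insig1 and Hmgcs1 had opposite directions in Xist cells and Y cells under the same contrast of media. The log2 ratio of Insig1 (induction over expansion) was 0.34 in Xist cells and -0.34 in Y cells, and that of Hmgcs1 was 0.20 and -0.26. The intervals for counting error lay on opposite sides of 0 in each case. Relative to the median of all genes tested in the same cells, Hmgcs1 had the same sign in both (-0.08 and -0.45), and Insig1 was within counting error of 0 in Xist cells (0.07), so the opposite directions depend on the scaling. With 1 library per medium the difference between the kinds of cells was not tested, and sex and animal cannot be told apart. The kinds of cells were also spread unevenly over the clusters. In cluster 3 of induction medium 97.2% were Xist cells and 0.397% Y cells. Within that medium Insig1 (208 CPM) and Hmgcs1 (233 CPM) were highest there. In cluster 4 of expansion medium 81.7% were Xist cells and 2.82% Y cells. The part of the clusters in the opposite directions was not tested.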

How the results depend on the processing

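Sqle was the 1 member called under all 13 alternatives counted here, with a log2 ratio from 1.11 to 1.43 over the 11 that give one. The cells of cluster 2 alone are not counted among the 13. In them Sqle was not called (log2 ratio 0.61) and Idi1 was (1.02). Some of the 13 could change little. Dropping the CPM minimum could not alter the calls, since all 7 members passed it. Leaving out marked doublets or shared barcodes removed few cells, and all alternatives reused the same 2 libraries. The median log2 ratio of the members, -0.09, moved to -0.31 with totals without mitochondrial and ribosomal protein genes and to -0.31 relative to the median gene, and was 0.20 in Xist cells and -0.26 in Y cells. Over the 11 alternatives that give a ratio, Insig1 ranged from -0.34 to 0.34, Hmgcs1 from -0.39 to 0.20, Idi1 from -0.37 to 0.04 and Fdft1 from -0.10 to 0.32. Over the same 11, Srebf2 (-0.49 to -0.06) and Lss (-0.49 to -0.01) kept their sign. Shares of cells differed between the media with intervals apart for 2 members at 2000 UMIs (Sqle and Hmgcs1), for 1 (Sqle) at 1000 UMIs and with another seed, for 2 at 4000 UMIs (Sqle and Fdft1), and for 7 without thinning, where the libraries differ in depth. The median correlation of a member with the others, 0.11 in induction and 0.07 in expansion medium, was 0.17 and 0.19 at 4000 UMIs, 0.18 and 0.44 without thinning and 0.29 in expansion cells at 10000 UMIs; with another seed it was 0.10 and 0.11, without the gap between the media. The range of the summed members over clusters of expansion medium, 3.63-fold, was 1.78-fold at resolution 0.3 and 3.35-fold at 1.0; the cause was not tested. Leaving out barcodes found in both libraries, leaving out cluster 2, thinning expansion cells to 10000 UMIs and setting the lists and subsets of cells against their median gene were alternatives chosen after seeing the data. No paired analysis was possible because each medium has 1 library, numbered 1 in accession order.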
